A study of Homo sapiens with 7 samples.

Results

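The regions described here are the peaks of the list labelled H3K9me3 that lay away from active chromatin marks in T-47D cells. They were chosen by position: a peak on chromosomes 1 to 22 or X was taken when it shared no base with any peak of H3K27ac, of H3K4me2 or of the list labelled H2A.Z. Of 20451 labelled H3K9me3 peaks on these chromosomes, 9221 met this rule (45.1%, 95% Wilson interval 44.4 to 45.8%). They are called peaks off active marks below. Of the rest, 9759 overlapped H3K27ac or H3K4me2 and are called peaks on active marks, and 1471 overlapped the list labelled H2A.Z alone. All 6 lists together held 285703 peaks on these chromosomes.

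The study profiled histone marks in T-47D, an established luminal breast cancer cell line that carries the estrogen receptor, by chromatin immunoprecipitation and sequencing (ChIP-seq). Cultures were grown with 10% serum to 70 to 80% confluence, the labels name no treatment, and sonicated nuclei were used. Antibodies against H3K9me3 (Abcam ab8898), H2A.Z (Abcam ab4174), H3K27ac (Abcam ab4729), H3K4me2 (Millipore 07-030), H3K27me3 (Cell Signaling 9733S) and H3K36me3 (Active Motif 61101) gave 1 library each. The input library was not analysed here, no mark had a replicate, and the read depth of the libraries is unknown. Differences below therefore carry no replicate error and no p-value. Intervals (95%) treat each peak as a separate draw, cover counting error alone and understate the error where peaks cluster.

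As background, H3K9me3 is the mark of constitutive heterochromatin, written by SUV39H and SETDB1 enzymes and read by HP1 proteins. It is known for long domains near centromeres, over silenced repeats and over clusters of zinc finger genes. H3K27ac and H3K4me2 mark active promoters and enhancers, H3K36me3 marks the bodies of transcribed genes, and H3K27me3 is the Polycomb mark of repressed genes. The deposited lists went against the first of these in part. Of the labelled H3K9me3 peaks, 9759 overlapped H3K27ac or H3K4me2 and 10692 did not, 1471 of these on labelled H2A.Z alone. No labelled H3K9me3 peak was longer than 3878 bp, but the peak settings, which can also set widths, are not given. The list labelled H2A.Z, a variant known from promoters and enhancers, shared bases with 29 of the 9759 peaks on active marks (0.297%, 0.207 to 0.426%). Both lists are named by their labels only, and what was bound in either library was not tested. Whether the labels of these lists were exchanged, or whether the antibodies bound something else, cannot be told from positions alone, and every value below holds for a list under its label.

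The rule splits peaks at a shared base, so some peaks lay at its edge. The nearest peak off active marks was 1 bp from a peak of the 3 rule lists, and 303 (3.29%) lay within 100 bp of one. Just outside the rule, the smallest overlap was 1 bp, and 364 peaks had a largest overlap of at most 100 bp.

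Peaks off active marks were narrow. Of the 9221, 7601 had the smallest width in the list, 0.501 kb (82.4%, 81.6 to 83.2%), against 4472 of 9759 peaks on active marks (45.8%, 44.8 to 46.8%). Over the whole list this share was 65.0%. Widths above 1 kb were found in 257 peaks off active marks (2.79%, 2.47 to 3.14%) and in 1873 peaks on them (19.2%, 18.4 to 19.99%). Peaks off active marks covered 5.13 Mb and peaks on active marks 7.497 Mb. The share at 0.501 kb was higher off active marks on 23 of 23 chromosomes. A wider peak has more bases that can meet another list, so width is not independent of the rule. The 1471 peaks that overlapped only the list labelled H2A.Z had 82.3% at 0.501 kb (80.2 to 84.1%). The part of width in the rule was not tested.

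**Figure D1:**
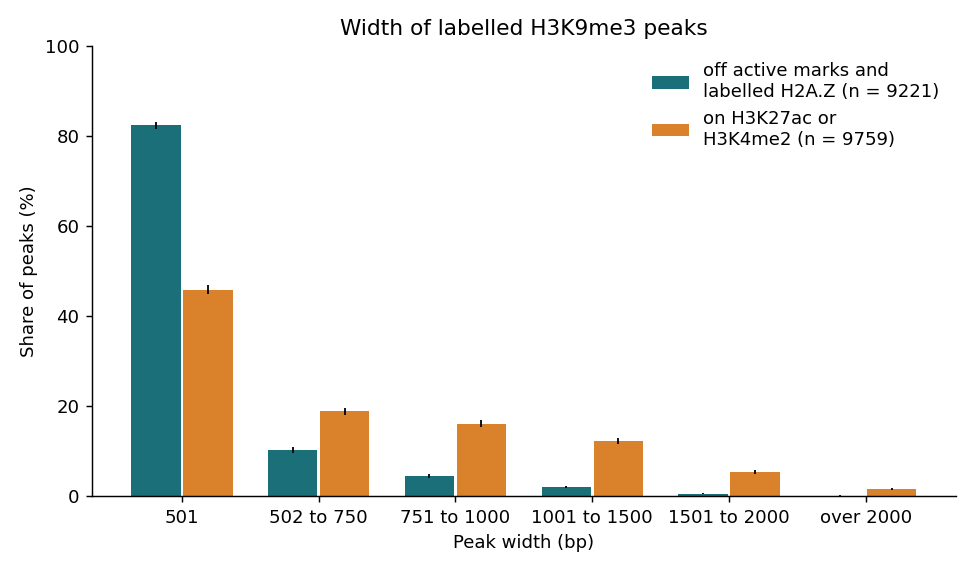
Share of labelled H3K9me3 peaks (%, y axis) in 6 classes of width (bp, x axis), for the 9221 peaks off active marks and the 9759 peaks on H3K27ac or H3K4me2, with Wilson 95% intervals as lines. The class of 0.501 kb holds 82.4% of peaks off active marks and 45.8% of peaks on them, and every wider class is larger among peaks on active marks.

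The same values read from the side of width show how the list divides. Peaks off active marks made up 57.2% of labelled H3K9me3 peaks of 0.501 kb (56.4 to 58.1%). Their share was 27.2% between 0.501 kb and 1 kb and 12.2% between 1 and 2 kb. Above 2 kb it was 8.54%, or 14 of 164 peaks (5.15 to 13.8%). No long domain was among the peaks as listed: the widest peak off active marks was 2968 bp and the widest on active marks 3878 bp. The peak settings are not given, so these widths do not show whether longer domains were present in the cells.

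The 5 widest peaks off active marks all lay close to active marks or to H3K36me3. The widest was at chr11:65257449-65260416 (hg19), 4.90 kb from H3K4me2 and 7.80 kb from H3K36me3. Next came chr17:41321210-41323787 at 2578 bp, 2.60 kb from H3K36me3. The peak at chr12:57479739-57482151 (2413 bp) was 3.04 kb from H3K36me3 and 3.62 kb from H3K27ac. These 3 were over 100 kb from the list labelled H2A.Z. The other two were at chr17:39821804-39824122 (2319 bp), 0.355 kb from H3K27ac, and at chr11:47234350-47236621 (2272 bp), 1.999 kb from H3K36me3. Among the 20 widest, at least 1885 bp each, 15 lay within 10 kb of an active mark, 12 within 10 kb of H3K36me3, 3 within 10 kb of labelled H2A.Z and 1 within 10 kb of H3K27me3.

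Across all 257 peaks off active marks over 1 kb wide, 68.5% lay within 10 kb of H3K27ac or H3K4me2 (62.6 to 73.9%), and 38.9% within 10 kb of H3K36me3 (33.2 to 45.0%). For the 7601 of 0.501 kb the shares were 31.0% (30.0 to 32.1%) and 6.20% (5.68 to 6.76%). The order was the opposite for labelled H2A.Z, which lay within 10 kb of 14.8% of the wide peaks (10.97 to 19.6%) and of 51.3% of the narrow ones (50.2 to 52.4%). Wide and narrow peaks off active marks thus stood in different surroundings.

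Distances to the other lists were measured from edge to edge. The median distance of peaks off active marks was 10.95 kb to labelled H2A.Z (quartiles 2.26 and 75.7 kb) and 25.6 kb to H3K4me2 (6.15 and 80.4 kb). It was 48.0 kb to H3K27me3 (7.46 and 184 kb), 136 kb to H3K27ac (26.0 and 357 kb) and 273 kb to H3K36me3 (61.8 and 700 kb). The lists differ in size and clustering, which also sets these distances, so their order is a description of these files. Any peak of the other 5 lists was a median of 2.09 kb away. Labelled H2A.Z was the nearest list for 3755 peaks off active marks (40.7%), H3K4me2 for 2404 (26.1%), H3K27me3 for 1868 (20.3%), H3K27ac for 961 (10.4%) and H3K36me3 for 233 (2.53%).

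Labelled H2A.Z, which the rule used, lay within 10 kb of 48.6% of peaks off active marks (47.6 to 49.6%) and of 8.36% of peaks on them (7.83 to 8.93%), with medians of 10.95 kb off and 126 kb on active marks. H3K27me3 and H3K36me3, which the rule did not use, also differed between the classes. Each has its own position relative to active marks, so these distances are not independent of the rule and are given without a test. H3K27me3 overlapped 497 peaks off active marks (5.39%, 4.95 to 5.87%) and 75 peaks on them (0.769%, 0.614 to 0.962%), with 3.55% over the whole list. An H3K27me3 peak lay within 10 kb of 28.2% of peaks off active marks (27.3 to 29.1%) and of 12.1% of peaks on them (11.4 to 12.7%). Both shares were higher for the 1471 peaks on labelled H2A.Z alone. Of these, 10.5% overlapped H3K27me3 (9.07 to 12.2%) and 34.9% lay within 10 kb of it (32.5 to 37.3%). The median distance to H3K27me3 was 48.0 kb off active marks and 107 kb on them. It was shorter off active marks on 21 of 23 chromosomes. The exceptions were chromosome 6, at 131.1 kb off and 131.0 kb on active marks, and chromosome X, at 245 kb off and 190 kb on active marks, where 61 peaks lay off active marks.

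H3K36me3 showed the opposite order. Its peaks lay within 10 kb of 9.11% of peaks off active marks (8.54 to 9.71%) and of 34.1% of peaks on them (33.1 to 35.0%). For the 1471 peaks on labelled H2A.Z alone the share was lower still, at 0.680% (0.370 to 1.25%). The median distance was 273 kb off active marks and 27.6 kb on them, and it was longer off active marks on 22 of 23 chromosomes. The exception was chromosome 22, with 16 peaks off active marks and medians of 24.1 kb off and 24.8 kb on active marks. Direct overlap with H3K36me3 was rare in both classes, with 22 peaks off active marks (0.239%) and 9 on them (0.0922%), and 0.156% over the whole list. Zinc finger gene clusters are known to carry H3K9me3 together with H3K36me3, and 22 overlapping peaks are all that these lists hold of that pair off active marks.

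The order of the classes was the same within each width. Among peaks of 0.501 kb, H3K27me3 lay within 10 kb of 29.6% off active marks (28.6 to 30.7%) and of 11.9% on them (10.96 to 12.9%). H3K36me3 lay within 10 kb of 6.20% off active marks (5.68 to 6.76%) and of 31.2% on them (29.9 to 32.6%). Among wider peaks the gap was smaller, at 21.4% off and 12.3% on active marks for H3K27me3, and at 22.8% off and 36.5% on active marks for H3K36me3.

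**Figure D2:**
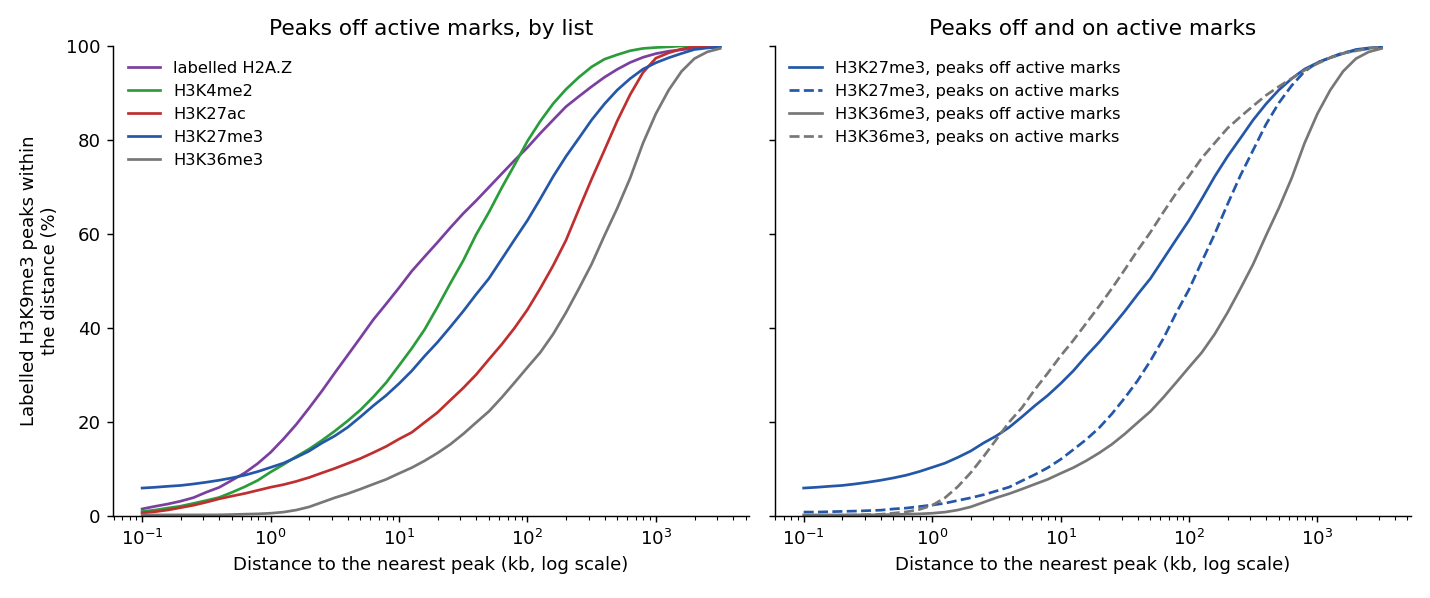
Cumulative share of labelled H3K9me3 peaks (%, y axis) within a given distance (kb, log scale, x axis) of the nearest peak of another list. The left panel shows the 9221 peaks off active marks for each of the 5 other lists, and the right panel compares them (solid lines) with the 9759 peaks on active marks (dashed lines): H3K27me3 lies closer off active marks, and H3K36me3 lies closer on them.

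To see whether peaks off active marks were close to or far from those lists, their midpoints were set beside the genome itself. The analysed span was 2772.7 Mb, of which 2661.7 Mb lay outside the 3 rule lists. Within 5 kb of labelled H2A.Z lay 36.9% of midpoints off active marks (35.9 to 37.9%) and 11.3% of the span, a ratio of 3.25. Within 10 kb of H3K27me3 lay 27.8% of midpoints (26.9 to 28.8%) and 17.8% of the span, and within 10 kb of H3K36me3 9.0% of midpoints (8.41 to 9.58%) and 15.4% of the span. Peaks off active marks were thus closer than the span to labelled H2A.Z and H3K27me3, and farther from H3K36me3.

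For active marks the midpoints exceeded the span within 1 and 5 kb and not within 50 kb. Midpoints within 1 kb of H3K27ac or H3K4me2 made up 10.2% of peaks off active marks (9.57 to 10.8%), against 5.15% of the span. Within 5 kb the shares were 25.01% of midpoints (24.1 to 25.9%) and 18.8% of the span, and within 50 kb they were 65.8% (64.8 to 66.8%) and 68.3%. The same rule applied to H3K27me3 gave 56198 peaks, of which 1.47% had midpoints within 1 kb of an active mark (1.38 to 1.57%). Applied to H3K36me3 it gave 47306 peaks and a share of 3.85% (3.68 to 4.03%). At 1 kb both were below the share of the span, and labelled H3K9me3 peaks off active marks were above it. A peak wider than 2 kb that meets no active mark cannot have its midpoint within 1 kb of one, so width enters this comparison. At 5 kb H3K36me3 peaks under the rule were above the span, at 26.7% (26.3 to 27.1%), and H3K27me3 peaks were still below it, at 11.1% (10.9 to 11.4%). At 50 kb the share was 92.3% for H3K36me3 peaks and 69.9% for H3K27me3 peaks. For labelled H2A.Z within 5 kb, H3K27me3 peaks under the rule had 33.9% (33.6 to 34.3%) and H3K36me3 peaks 0.757% (0.683 to 0.839%).

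The 1180 peaks off active marks that lay within 1 kb of an active mark mostly had it on 1 side. Only 91 of them (7.71%, 6.32 to 9.37%) had H3K27ac or H3K4me2 within 1 kb on both sides, so few sat in a narrow opening between active peaks. H3K4me2 alone was within 1 kb of 611 of them, H3K27ac alone of 314 and both of 255. At 5 kb, 524 of 2360 (22.2%, 20.6 to 23.9%) had an active mark on both sides.

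Surroundings differed with distance from active marks. Within 0.5 kb of an active mark, 64.7% of the 782 peaks were 0.501 kb wide (61.3 to 68.0%), and beyond 100 kb 87.6% of 1747 were (85.9 to 89.0%), with little change beyond 20 kb (87.2 to 87.6%). H3K36me3 within 10 kb was similar in the nearest pair of the 7 classes, at 37.1% (33.8 to 40.5%) and 37.4% (32.8 to 42.3%), and declined beyond 1 kb to 0.859% in the farthest (0.521 to 1.41%). Labelled H2A.Z within 10 kb showed the reverse, with 11.1% in the nearest class (9.11 to 13.5%) and 80.0% in the farthest (78.1 to 81.8%). H3K27me3 was highest in between: 13.0% in the nearest class (10.9 to 15.6%), 38.8% at 20 to 50 kb (36.5 to 41.0%) and 19.3% beyond 100 kb (17.6 to 21.3%). Labelled H2A.Z is in the rule, and each of these lists has its own position relative to active marks. The share of the span in each class was not computed. Whether these changes are particular to labelled H3K9me3 peaks was therefore not tested.

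**Figure D3:**
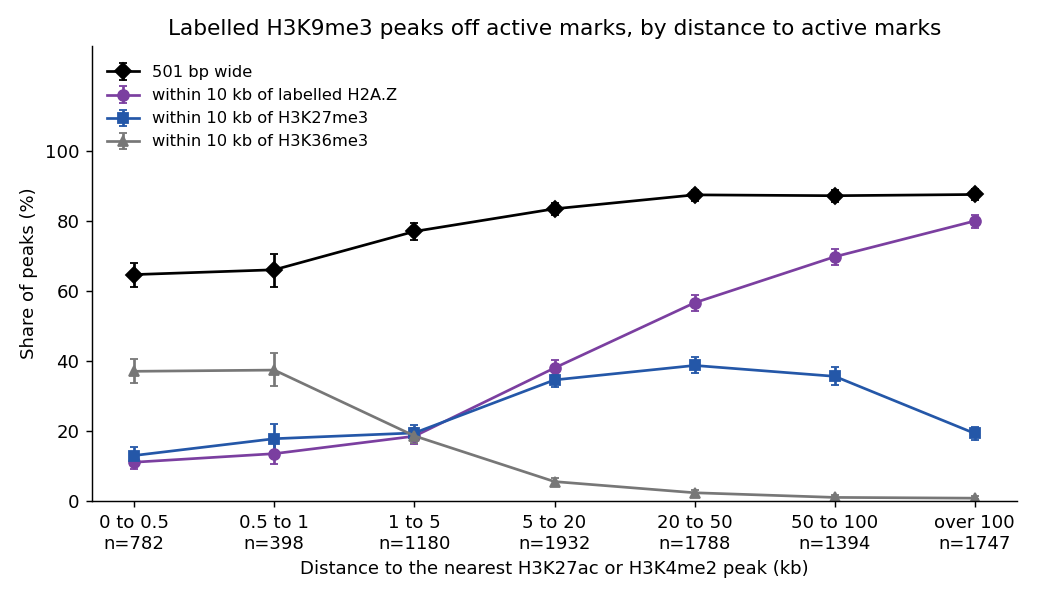
Labelled H3K9me3 peaks off active marks in 7 classes of distance to the nearest H3K27ac or H3K4me2 peak (kb, x axis, with n), and the share (%, y axis) that is 0.501 kb wide or lies within 10 kb of labelled H2A.Z, H3K27me3 or H3K36me3, with Wilson 95% intervals. H3K36me3 falls from 37.1 to 0.859% and labelled H2A.Z rises from 11.1 to 80.0% with distance, while H3K27me3 peaks at 38.8% between 20 and 50 kb. The share of the span in each class was not computed.

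Taking 10 kb for active marks, for labelled H2A.Z and for H3K27me3, the peaks off active marks fell into 4 sets. The most frequent set was near labelled H2A.Z or H3K27me3 and not near active marks, with 4322 peaks (46.9%, 45.9 to 47.9%), 87.4% of them 0.501 kb wide. A further 2230 (24.2%, 23.3 to 25.1%) were near active marks alone, and 70.5% of these were 0.501 kb wide. Another 957 (10.4%) were near both kinds and 1712 (18.6%) near neither. Both labelled H2A.Z and H3K27me3 were within 10 kb of 1800 peaks (19.5%, 18.7 to 20.3%).

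Some peaks off active marks stood alone. More than 10 kb from every peak of the other 5 lists lay 1642 (17.8%, 17.0 to 18.6%), and more than 50 kb away lay 236 (2.56%, 2.26 to 2.90%). Of the 1642, 87.0% were 0.501 kb wide (85.3 to 88.5%), against 82.4% of all 9221 peaks off active marks. The share was 87.4% (86.3 to 88.3%) for peaks near labelled H2A.Z or H3K27me3 and not near active marks, so it was not particular to isolated peaks. The 3 most isolated, all 0.501 kb wide, were chr6:95467447-95467947, 556 kb from the nearest peak of another list, chrX:68385427-68385927, at 516 kb, and chr3:88777629-88778129, at 467 kb.

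Clustering along the genome was described by the spacing of peaks, with no expected spacing computed. The nearest other peak off active marks was a median of 37.1 kb away (quartiles 11.6 and 118 kb), and peaks on active marks were 52.1 kb from the next of their own class (14.9 and 138 kb). Another peak of the same class lay within 10 kb for 22.2% off active marks (21.4 to 23.1%) and 19.7% on them (18.9 to 20.5%). This difference turned with the distance and the rule: within 5 kb the shares were 13.2% off and 13.4% on active marks, and within 1 kb 2.67% off (2.36 to 3.02%) and 5.32% on active marks (4.89 to 5.78%). Any other labelled H3K9me3 peak, whatever its class, lay within 10 kb of 33.2% off active marks (32.3 to 34.2%) and 26.96% on them (26.1 to 27.8%), with 31.2% over the whole list.

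Successive peaks off active marks at most 10 kb apart were joined into runs. This gave 8074 runs, of which 7173 were single peaks (77.8% of peaks), 741 were pairs and 117 held 3. There were 18 runs of 5 or more peaks, with 115 peaks in all (1.25%). Peaks on active marks had 12 such runs with 67 peaks (0.687%). The highest number in a run was 10 off active marks and 8 on them. Of the 18 runs, 11 lay on chromosome 11 and 3 within 1 Mb of a gap.

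The 3 runs with most peaks had no active mark within 50 kb. Others did: among the 18, the runs at chr10:36869819-36912239 (7 peaks) and chr3:180447042-180471117 (6 peaks) had H3K4me2 inside their span, and that at chr11:132009293-132026186 (5 peaks) lay 4.38 kb from it. Those at chr11:127356759-127372334 (5 peaks) and chr20:41749617-41771761 (6 peaks) lay 44.5 and 45.1 kb from H3K4me2. The run at chr11:132428719-132477039 held 10 peaks in 48.3 kb, was 117 kb from H3K4me2 and 607 kb from H3K27ac, and had a labelled H2A.Z peak inside its span. The run at chr19:24518425-24567027 held 10 peaks in 48.6 kb and lay 29.1 kb from a gap, with H3K27ac 247 kb away and labelled H2A.Z again inside its span. The third, at chr16:32538922-32560870, held 8 peaks in 21.9 kb, 65.8 kb from H3K4me2, and had H3K27me3 inside it. Another run of 8 peaks, longer at 30.4 kb, was at chr7:61527758-61558148, 0.472 Mb from a gap.

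Gaps were spans of at least 1 Mb without a peak of any list, 64 in number and 259.6 Mb in all. Short reads are known not to be placed in centromeres and long repeats, and gaps of that kind cannot be told apart here from stretches where no peak was called. Within 1 Mb of a gap lay 305 peaks off active marks (3.31%, 2.96 to 3.69%) and 156 peaks on active marks (1.60%, 1.37 to 1.87%). The share was 3.26% for the whole analysed span and 2.74% for the whole list. The interval off active marks includes the share of the span, and that of peaks on active marks lies below it. This difference depended on the length asked of a gap: with gaps of at least 0.5 Mb the shares were 5.25% off and 4.74% on active marks. Under the same rule 0.989% of H3K27me3 peaks (0.911 to 1.07%) and 1.72% of H3K36me3 peaks (1.61 to 1.84%) lay within 1 Mb of a gap. The 1471 peaks on labelled H2A.Z alone were more often there, at 6.80% (5.62 to 8.20%).

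Closer to gaps there were few peaks. Within 100 kb lay 54 peaks off active marks (0.586%, 0.449 to 0.763%), 19 peaks on active marks (0.195%, 0.125 to 0.304%) and 0.370% of the span. Chromosome 19 gave 10 of the 54, which were the 10 peaks of the run described above. Without that chromosome the share was 0.482% (0.359 to 0.647%), an interval that includes the share of the span. Of the 305 within 1 Mb, chromosome 11 held 41, chromosome 7 held 40, chromosome 21 held 32 and chromosome 5 held 30.

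Some peaks off active marks were themselves the last peak before a gap. A gap edge was formed by 6 peaks off active marks and 2 on them. Counted against the other lists alone, 12 peaks off active marks lay inside spans of 1 Mb or more with no peak of the other 5 lists. Peaks on active marks overlap H3K27ac or H3K4me2 by definition and cannot lie inside such a span. The 2 that shared bases with one only reached into it, so the 2 classes cannot be compared by this count. The longest such span, 11.2 Mb, held chr16:35217970-35218470, 7.89 kb from the nearest labelled H2A.Z peak. The next held chr18:15403613-15404113 (3.38 Mb), chr3:93512297-93512797 (3.04 Mb) and chr7:58049393-58049893 (3.01 Mb). The fifth, of 1.73 Mb, held chr7:118507581-118508081, 369 kb from H3K4me2. All 5 were 0.501 kb wide. Of those that did not bound a gap, the nearest to one was chr9:47212068-47212568, 301 bp from it and on an H3K27me3 peak. It was followed by chr2:87034858-87035505, 685 bp from a gap and 184 bp from H3K4me2, and by chr21:9415255-9416381, 1722 bp from a gap and 1127 bp wide.

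Chromosomes differed far more in peaks off active marks than in peaks on them. The density off active marks was highest on chromosome 11, at 8.52 peaks per Mb (exact Poisson interval 8.03 to 9.04). It was lowest on chromosome 22, with 16 peaks, at 0.466 per Mb (0.266 to 0.756), an 18.3-fold range. On active marks it ranged 5.25-fold, between 6.82 per Mb on chromosome 17 (6.26 to 7.43) and 1.30 on chromosome X (1.10 to 1.53). The list labelled H2A.Z ranged more than either, 27.3-fold between 46.7 and 1.71 peaks per Mb. Chromosomes 14 and 20 followed chromosome 11, with 7.64 and 6.61 peaks off active marks per Mb. Chromosomes 2, 4, 13, 18, 22 and X had under 1 per Mb. Density off active marks exceeded that on them on 7 of 23 chromosomes (3, 5, 7, 8, 11, 14 and 20), with overlapping intervals on chromosomes 3 and 20. The number of copies of each chromosome in the line was not measured here, and its part in these densities was not tested.

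**Figure D4:**
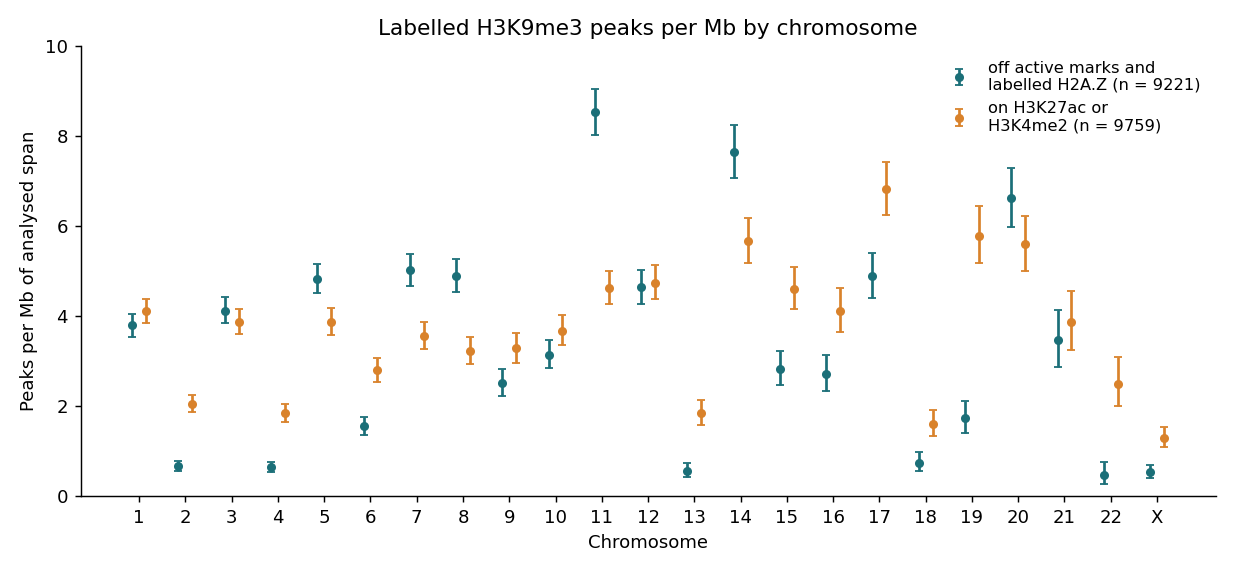
Labelled H3K9me3 peaks per Mb of analysed span (y axis) on each of 23 chromosomes (x axis), off active marks and on H3K27ac or H3K4me2, with exact Poisson 95% intervals. Peaks off active marks reach 8.52 per Mb on chromosome 11 and stay under 1 per Mb on chromosomes 2, 4, 13, 18, 22 and X.

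Peaks off active marks made up 54.9% of the labelled H3K9me3 list on chromosome 8 (52.1 to 57.6%), 54.3% on chromosome 11 (52.2 to 56.5%) and 15.7% on chromosome 22 (9.89 to 24.0%). Chromosome 19, which holds large zinc finger gene clusters, was among the lowest by this share, with 97 peaks off active marks out of 424 (22.9%, 19.1 to 27.1%). Its density was 1.74 per Mb off active marks (1.41 to 2.12) and 5.78 per Mb on them (5.17 to 6.45). On that chromosome 62.9% of them lay within 5 kb of an active mark (53.0 to 71.8%), against 18.1% on chromosome 11 (16.0 to 20.5%).

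Density off active marks followed that of labelled H2A.Z from chromosome to chromosome. Over 23 chromosomes, Spearman's rho was 0.94 with labelled H2A.Z and 0.82 with H3K27me3, against 0.43 with H3K4me2, 0.39 with H3K27ac and 0.35 with H3K36me3. For peaks on active marks the values were 0.73 with labelled H2A.Z, 0.78 with H3K27me3, 0.82 with H3K4me2, 0.80 with H3K27ac and 0.81 with H3K36me3. Without chromosomes 11, 14 and 20, rho of peaks off active marks with labelled H2A.Z was 0.91. These are descriptions across chromosomes of the same libraries, which share the span in the denominator, chromosome copy number and mappability, and they carry no test.

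The order among lists was not the same at all distances from active marks. The 3141 peaks more than 50 kb from any active mark had a rho of 0.96 with labelled H2A.Z, 0.81 with H3K27me3, 0.35 with both H3K27ac and H3K4me2, and 0.27 with H3K36me3. The 2360 within 5 kb had 0.80 with labelled H2A.Z, 0.75 with H3K27me3, 0.72 with H3K4me2, 0.69 with H3K36me3 and 0.68 with H3K27ac. The 5 values lay closer together near active marks than far from them.

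**Figure D5:**
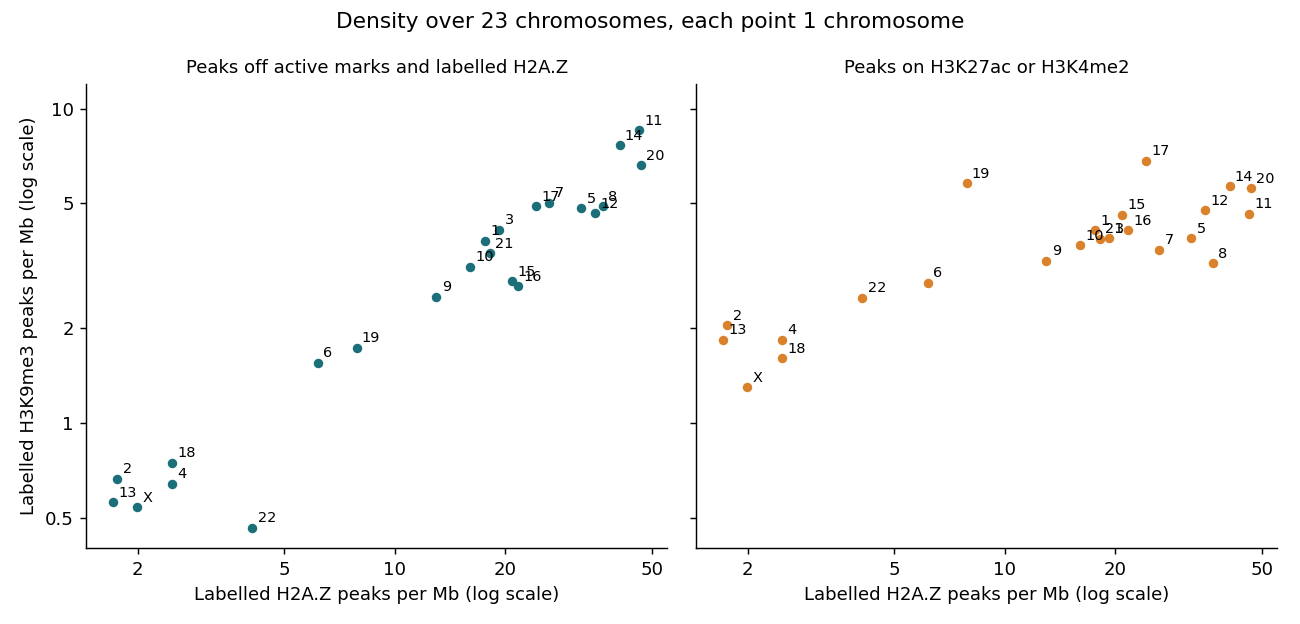
Labelled H3K9me3 peaks per Mb (log scale, y axis) against labelled H2A.Z peaks per Mb (log scale, x axis), each point 1 of 23 chromosomes, for peaks off active marks (left) and peaks on H3K27ac or H3K4me2 (right). The left panel rises (rho 0.94), with chromosome 22 low, and the right panel is flatter (rho 0.73), with chromosome 19 high for its labelled H2A.Z density.

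The relation with labelled H2A.Z was also seen on a finer scale. Over 283 windows of 10 Mb, rho of density off active marks with labelled H2A.Z was 0.89, and within single chromosomes it was positive on 14 of the 14 with at least 10 windows (median 0.81, lowest 0.17). For peaks on active marks rho with labelled H2A.Z was 0.68 over the windows. It was also positive on 14 of these 14 chromosomes, with lower values (median 0.43, lowest 0.090). With H3K27me3 the order of the classes turned, at 0.68 off active marks and 0.72 on them over the windows, and 0.82 off and 0.78 on active marks over chromosomes. Within chromosomes rho with H3K27me3 was positive on 14 of 14 in both classes (median 0.48 off and 0.72 on active marks). With H3K27ac rho off active marks was 0.33 over the windows and positive on 10 of 14 chromosomes. The densest window was 120 to 130 Mb of chromosome 11, with 190 peaks off active marks (19 per Mb, 16.4 to 21.9) and 52 on them (5.20 per Mb). Labelled H2A.Z had 87.0 peaks per Mb there and H3K27me3 80.4. The next was 80 to 90 Mb of chromosome 14, with 147 peaks off active marks and 48 on them. In 107 of the 283 windows there was under 1 peak off active marks per Mb.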

How the data were processed

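ChIP-seq of 6 marks in T-47D cells gave 1 peak list per library, and the input was not analysed here. The deposited lists hold positions only (chromosome, start, end, name), with no score, count or coverage, so depth is unknown and peaks cannot be ranked by strength. The submitters' processing notes name the builds hg19 and GRCh37 and the tools HOMER 4.2 and Bowtie2 2.1.0. The role of each tool, the peak settings and any use of the input is not given in the sources used here. Peaks that share a width of 0.501 kb cannot be told from narrower signal.

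Positions on chromosomes 1 to 22 and X were used as the authors deposited them and are printed 1-based. Overlap meant at least 1 shared bp, and distances run from edge to edge, with adjacent peaks at 1 bp. Peaks per Mb used the span left after gaps of 1 Mb or more were removed. The share of the span near a list was counted on a grid of 100 bp outside the 3 rule lists. For gaps the grid covered the whole analysed span. Windows of 10 Mb needed at least 5 Mb of analysed span. Shares have Wilson and densities exact Poisson intervals (95%). The distance and overlap code was tested on simulated intervals. Python 3.11.15, numpy 2.4.6, pandas 2.3.3, scipy 1.17.1 and matplotlib 3.10.9 were used.

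Regions named are the 5 widest, the 3 runs with most peaks, the 3 farthest from other lists, the 3 nearest to a gap they do not bound and 5 inside spans without other lists. The fourth run, the runs near H3K4me2, the 20 widest, chromosome 19 and the densest windows were named after their values were seen. The regions, classes and limits were chosen with earlier results of these data known. Alternatives were another overlap, other rules, merged peaks, autosomes, wider peaks, and other distances and gaps. Chromosomes left out, and the correlation under other rules, were added after seeing the data. Gene annotation and sequence of hg19 were not used here, so regions carry no gene names.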

Additional observations from a re-analysis of the deposited data

Results flagged for a closer look

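Labelled H3K9me3 peaks outside chromosomes 1 to 22 and X entered no comparison above. On unplaced and alternate contigs, 79 of 252 such peaks (31.3%, 25.9 to 37.3%) shared no base with H3K27ac, H3K4me2 or labelled H2A.Z, and on chromosome Y 11 of 22 did (50%, 30.7 to 69.3%). On chromosomes 1 to 22 and X the share was 45.1%. They are given because these positions lie outside the comparisons. Contigs held 1.22% of the labelled H3K9me3 list (1.08 to 1.37%) and between 0.264 and 0.564% of the other 5 lists.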

How the results depend on the processing

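Setting peaks off active marks beside peaks on them, 33 of 36 comparisons under the alternatives kept their direction. The 3 that turned all concern another peak of the same class within 10 kb, where the difference in percentage points was 2.55: it was -0.215 within 5 kb, -1.56 for peaks at least 1 kb from the 3 rule lists and -5.81 for peaks wider than 0.501 kb. The cause was not tested. Values that moved follow by setting, those of the 3 turned comparisons included. Where overlap had to reach 50% of the shorter peak, 80.4% were 0.501 kb wide, 30.5% lay within 5 kb of an active mark, 27.2% within 10 kb of H3K27me3, 10.7% within 10 kb of H3K36me3 and 23.7% within 10 kb of another such peak. Chromosome 8 then had a share of 60.4% and chromosome 11 had 9.67 peaks per Mb. With the rule on H3K27ac and H3K4me2 alone, the values were 22.7% for active marks, 7.95% for H3K36me3, 28.4% for another peak, 3.79% for gaps within 1 Mb, 63.7% for chromosome 8 and 11.1 per Mb for chromosome 11. At least 1 kb from the rule lists, 84.4% were 0.501 kb wide, 16.8% were within 5 kb of active marks, 5.75% near H3K36me3 and 18.1% near another peak. Chromosomes 8 and 22 then had shares of 42.4 and 7.84%, and chromosomes 11 and 22 had 6.09 and 0.233 per Mb. With peaks merged within 1 kb, 24.4% were within 5 kb of active marks and 19.97% near another peak. The 1620 peaks wider than 0.501 kb gave 42.1% for active marks, 21.4% for H3K27me3, 22.8% for H3K36me3, 5.37% for another peak, 31.0% for chromosome 8, and 1.59 and 0.145 per Mb for chromosomes 11 and 22. Other distances gave 12.8% within 1 kb and 65.9% within 50 kb of active marks, 62.9% within 100 kb of H3K27me3, 31.7% within 100 kb of H3K36me3, and 13.2% within 5 kb and 56.5% within 50 kb of another peak. With gaps of at least 0.5 Mb, 5.25% lay within 1 Mb of one, against 4.74% of peaks on active marks. The Spearman correlation with labelled H2A.Z over chromosomes, 0.936 as reported, was 0.930 with 50% overlap, 0.938 on the shorter rule, 0.947 at 1 kb, 0.945 after merging, 0.936 for wider peaks and 0.907 without the 3 densest chromosomes. No paired analysis was possible because each mark had 1 library. With depth unknown, absence from a list does not show absence of the mark.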
